A study of Mus musculus with 3 samples.

Results

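The angiopoietins, the angiopoietin-like genes and the Tie receptors were followed across 3 stromal cell populations of the mouse mesenteric lymph node, from a study of dietary lipid in that node. The 7 members were Angpt1, Angpt2, Tek, Tie1, Angptl1, Angptl2 and Angptl4, taken from the scanner files by gene name; the list was drawn up with earlier results of these data known. They are 7 of 28076 genes and are read by 11 of 41156 probes. The arrays were single-colour Agilent mouse expression arrays, on which a short DNA probe binds labelled RNA and its brightness is recorded.

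The populations were fibroblastic reticular cells (FRC, the fibroblasts that build the node's scaffold), lymphatic endothelial cells (LEC) and blood endothelial cells (BEC). All came from wild-type C57BL/6NCrl mice, for which no treatment is named and no age is given. Nodes were digested with collagenase, CD45+ blood cells were depleted on magnetic columns, and CD45- CD24- cells were sorted as gp38+ CD31- (FRC), gp38+ CD31+ (LEC) or gp38- CD31+ (BEC). The labels give a mean purity of 88% ± 1.5 over the subsets, with the kind of error not stated, and 30 to 50 ng of RNA for labelling. The number of mice or sorts behind each RNA is not stated. Each population had 1 array, so there were no replicates, no difference could be tested, and every value below describes these 3 arrays.

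As background, angiopoietins are secreted ligands of Tie2, the receptor tyrosine kinase that Tek encodes on endothelial cells. Angpt1 activates Tie2 and keeps vessels quiet and tight, whereas Angpt2 is context-dependent, blocking Tie2 in some settings and activating it in others, with lymphatic vessels among the latter. Tie1 is a related receptor that pairs with Tie2 and modulates it. The angiopoietin-like proteins share the fold of the angiopoietins but do not bind Tie2: Angptl4 inhibits lipoprotein lipase, Angptl2 acts in inflammation and tissue remodelling, and Angptl1 has been described as a vascular factor. In a mesenteric node, which drains lipid-rich lymph from the gut, vessel stability and lipase control both bear on its function.

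The probe sequences of 4 members are shown because the level that stands for each of these genes is read from this stretch of RNA. For Angpt1 and Angptl2, which have further probes, the brightest is shown. Sequences are printed 5′ to 3′ in lower case as the files give them.
Tie1: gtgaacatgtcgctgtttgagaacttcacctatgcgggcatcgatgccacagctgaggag
Angpt1: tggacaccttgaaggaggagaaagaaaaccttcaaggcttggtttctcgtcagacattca
Angptl1: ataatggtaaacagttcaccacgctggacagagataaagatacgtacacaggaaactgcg
Angptl2: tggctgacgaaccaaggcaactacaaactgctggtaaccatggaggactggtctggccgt
The Tie1 probe lies at chr4:118144132-118144191 on the minus strand of mouse build mm9, the build the files use. The Angpt1 probe lies at chr15:42327896-42327955 (minus strand) and the Angptl2 probe at chr2:33099253-33099312 (plus strand). The Angptl1 probe is 60 bases long but spans 1844 bases at chr1:158788711-158790554 (plus strand), so its ends fall in separate blocks of the genome. No exon annotation of mm9 was used here. Probes of different members shared runs of at most 8 bases over the 50 pairs compared. Probes were compared only with each other, so a probe's match to the transcript of another member was not examined.

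Values are log2 of the processed intensity minus the array's 75th percentile, so 0 marks a probe as bright as that percentile. The 75th percentile was an intensity of 387 for FRC, 268 for LEC and 361 for BEC. Between 59.7% and 60.5% of probes were well above background, a mark the scanner software sets, and the lowest such level lay between -4.38 and -4.20. No spot was saturated. Spike-in slopes ran from 0.821 to 1.00, so an equal step in RNA need not give an equal log2 step on each array. Each member probe had 1 spot, and errors given with ± come from the scanner's error model for that spot. Those errors cover neither animals, sorts nor amplifications.

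The labels were read against marker lists. The summed signal of 11 fibroblastic reticular cell markers, in multiples of the 75th percentile, was 3219 on the FRC array, 190.4 on LEC and 63.1 on BEC. That of 9 lymphatic endothelial markers was 7.30, 292 and 52.0 in the same order, with Flt4, Reln and Ccl20 not well above background in FRC. That of 10 blood endothelial markers was 55.0, 475 and 1646, with Ly6c1 the brightest of them in FRC, at 5.17. By summed signal each list was therefore brightest on the array of its own label. By brightest probe, Madcam1 of the lymphatic list was 2.16-fold higher in BEC than in LEC. Kdr of the blood endothelial list was 1.45-fold higher in LEC than in BEC, and Ltbr of the fibroblastic list 1.31-fold higher in BEC than in FRC. The remaining markers were highest on the array of their own label. All 11 fibroblastic markers were nevertheless well above background on both endothelial arrays, and all 10 blood endothelial markers on the FRC array. Pecam1, which encodes CD31, the sorted antigen, was at -4.06, 2.33 and 4.02 for its brightest probe, while its other probe differed by 0.99 (LEC minus FRC) and 1.31 (BEC minus FRC). Pdpn, which encodes gp38, was at -0.83, -1.19 and -3.81. Transcripts of the antigens sorted against were well above background on all 3 arrays by brightest probe. Ptprc (CD45) was at -2.36, -1.57 and 0.23 and Cd24a at 1.61, 3.40 and 3.89. The Ptprc values rest on 1 of its 4 probes, since the others gave no difference or bound in any comparison.

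All 7 members were well above background in FRC, 6 in LEC and 5 in BEC. Each gene is given by its brightest probe, and a difference of 4-fold or more counts as higher. A fold is written "at least" where the dimmer array had no probe of the gene well above background, or, for a single probe, where that probe was not; its value there was raised to the lowest level with that mark, unless it was already above it. Between LEC and FRC, Angpt2 and Tie1 were higher in LEC, against 4.89% of the 18440 genes compared, and Angptl1 and Angptl2 were higher in FRC, against 5.93%. Between BEC and FRC, Angpt2 and Tie1 were again on the endothelial side, against 6.59% of 18830 genes, and Angptl1 and Angptl2 on the FRC side, against 7.57%. Both comparisons use the same FRC array and are not independent. Between LEC and BEC, none of the 6 members compared passed 4-fold in either direction, against 3.39% of 18322 genes higher in LEC and 3.38% higher in BEC. The members' median difference was 0.25 for LEC minus FRC, beside 0.03 over all genes compared. It was -0.27 beside 0.10 for BEC minus FRC, and 0.15 beside -0.07 when BEC was subtracted from LEC. Bounds enter these medians at their own value, and the -0.27 is itself the bound of Angpt1.

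**Figure D1:**
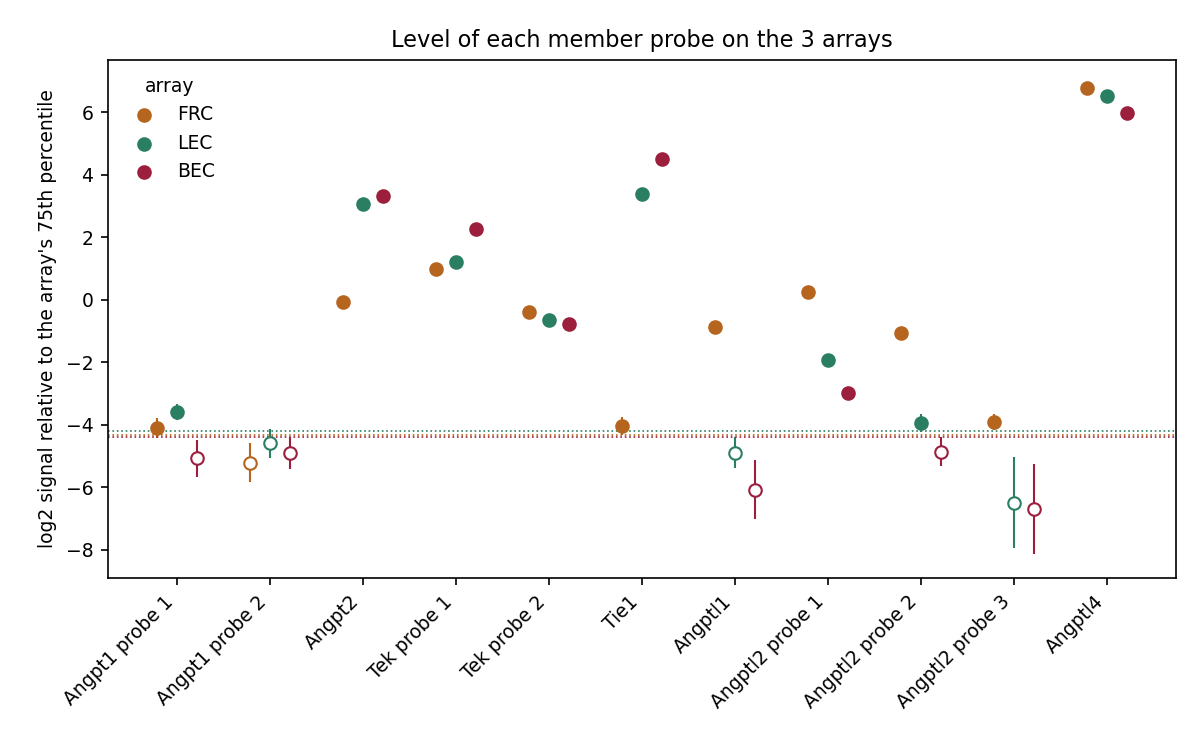
Level of every member probe on the FRC, LEC and BEC arrays, on the log2 scale relative to each array's 75th percentile. Bars are the scanner's error model for 1 spot, open circles are probes not well above background, and dotted lines mark the lowest level well above background; Tie1 runs from -4.04 in FRC to 4.49 in BEC, and Angptl4 stays between 5.98 and 6.77.

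The ligands of Tie2 differed from each other across the arrays. Angpt1, the activating ligand, was close to the detection limit on all 3 arrays. Its brighter probe had an intensity of 22.4 in FRC, 22.4 in LEC and 10.71 in BEC, or -4.11, -3.58 and -5.07 on the log2 scale, and in BEC it was not well above background. The LEC level was 0.53 ± 0.41 above FRC. Against BEC, Angpt1 was at least 1.20-fold higher in FRC and at least 1.74-fold higher in LEC. These bounds (BEC minus FRC -0.27, LEC minus BEC 0.80) stand beside spot errors of 0.67 and 0.64. The bound against FRC is thus smaller than its spot error. The second Angpt1 probe (chr15:42258569-42258628) was not well above background on any array, at -5.21, -4.59 and -4.90. On the brighter probe FRC and LEC thus did not differ by more than about the spot error, and BEC was the dimmest. On the second probe, below the background mark throughout, FRC was the dimmest.

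The pericyte and smooth muscle markers, whose cells are a textbook source of Angpt1, were all 12 well above background on each array. Their summed signal was 119 in FRC, 71.9 in LEC and 100.1 in BEC, with Acta2 and Tagln the brightest on each array. The markers did not move together. Between BEC and FRC, 2 of the 12 were higher in BEC and 4 in FRC, beside 6.59% and 7.57% of all genes. The part of pericyte and smooth muscle RNA in the Angpt1 signal was not tested. In these bulk samples, fewer cells of a type and less RNA per cell cannot be told apart.

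Angpt2, the context-dependent ligand, was far above background on every array. Its single probe (chr8:18691458-18691517) had an intensity of 367 in FRC, 2216 in LEC and 3567 in BEC, or -0.08, 3.05 and 3.31. LEC was 8.72-fold above FRC (log2 difference 3.12 ± 0.20) and BEC 10.4-fold above FRC (3.38 ± 0.20). LEC and BEC differed by only -0.26 ± 0.20, or 1.19-fold. Both endothelial arrays were thus high and close to each other, with FRC apart from them. Among the measured differences Angpt2 ranked 323 of 16212 genes for LEC over FRC and 385 of 16031 for BEC over FRC.

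The receptors also differed from each other. Tie1 had an intensity of 23.5 in FRC, 2772 in LEC and 8129 in BEC, or -4.04, 3.37 and 4.49. LEC exceeded FRC 170.3-fold (log2 difference 7.41 ± 0.32), and BEC exceeded FRC 371-fold (8.53 ± 0.32). These differences ranked 7 of 16212 and 4 of 16031 measured genes. The FRC level lay 0.30 above the lowest level well above background on that array. With normexp background correction the differences were 5.51 and 6.68, so the size of the fold depends on how the dim FRC spot is handled, while the direction did not change. BEC was 2.18-fold above LEC (LEC minus BEC -1.12 ± 0.20).

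Tek, the gene of Tie2, was less contrasted. Its brighter probe (chr4:94540861-94540919) had an intensity of 756 in FRC, 621 in LEC and 1741 in BEC, or 0.97, 1.21 and 2.27. BEC was 2.47-fold above FRC (1.30 ± 0.20) and 2.08-fold above LEC (LEC minus BEC -1.06 ± 0.20). LEC and FRC differed by 0.25 ± 0.20. Even on the FRC array this probe lay 5.30 (log2) above the lowest level well above background.

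The second Tek probe (chr4:94408487-94408546) lies within an extent of 132 kb with the first and was designed on a neonate eyeball cDNA clone. Its levels were -0.38 in FRC, -0.64 in LEC and -0.77 in BEC. Relative to FRC, LEC differed by -0.26 ± 0.21 and BEC by -0.39 ± 0.21, and LEC minus BEC was 0.13 ± 0.21. The probes of Tek therefore disagree in direction, and with the median over both the differences were -0.01, 0.46 and -0.46. Which transcripts each probe reads was not tested.

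Some endothelial genes were also well above background on the FRC array. The 10 blood endothelial markers summed to 55.0 there against 1646 in BEC, with median levels of 0.04 and 6.39. The brightest of them in FRC was Ly6c1, at 5.17. It was 6.12-fold higher in FRC than in LEC, whereas 7 of the 10 were higher in LEC, beside 4.89% of all genes. Cdh5, the endothelial cadherin, had levels of 0.38 in FRC, 5.76 in LEC and 6.83 in BEC. Nos3, the endothelial nitric oxide synthase, was not well above background in FRC. The part of admixed endothelial RNA in the FRC levels of Tie1 and Tek was not tested.

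The stretches 250 bases upstream of the Tie1 and Tek starts are shown because the pair of receptors differ in how far they separate the arrays. They come from RefSeq on GRCm38.p6, a build other than that of the probes, whose table held 4 of the 7 members. Capitals mark GGAA, the core letters that ETS factors bind, or its reverse complement TTCC.
Tie1, chr4:118489850-118490099, minus strand: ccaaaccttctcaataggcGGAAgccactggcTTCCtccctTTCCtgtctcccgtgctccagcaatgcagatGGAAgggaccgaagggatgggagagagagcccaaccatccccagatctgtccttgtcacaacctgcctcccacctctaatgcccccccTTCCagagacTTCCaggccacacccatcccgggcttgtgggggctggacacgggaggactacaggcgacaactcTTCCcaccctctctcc
Tek, chr4:94739039-94739288, plus strand: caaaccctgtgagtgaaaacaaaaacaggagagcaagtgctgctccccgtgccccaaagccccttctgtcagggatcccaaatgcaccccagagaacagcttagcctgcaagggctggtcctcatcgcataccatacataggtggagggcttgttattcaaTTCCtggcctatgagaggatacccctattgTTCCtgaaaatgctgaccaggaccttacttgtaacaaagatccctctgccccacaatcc
Tie1 held 7 matches, a number reached by 3.82% of the 32851 promoters of the same length, and Tek held 2, reached by 76.8%. Of the members highest in FRC, Angptl1 held 4, reached by 33.4%, and Angptl2 held 2, as Tek did. At least 1 match was present in 93.4% of promoters, with a median of 3. The longer CAGGAA, which contains GGAA, matched 1 time in Tie1 and 2 times in Tek on either strand, numbers reached by 25.7% and 4.17% of promoters. GATAA and TAAACA matched neither promoter on either strand and were present in 22.6% and 12.0% of all. A match describes letters, not a bound site. The GC content was 60.4% for Tie1 and 51.2% for Tek.

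**Figure D2:**
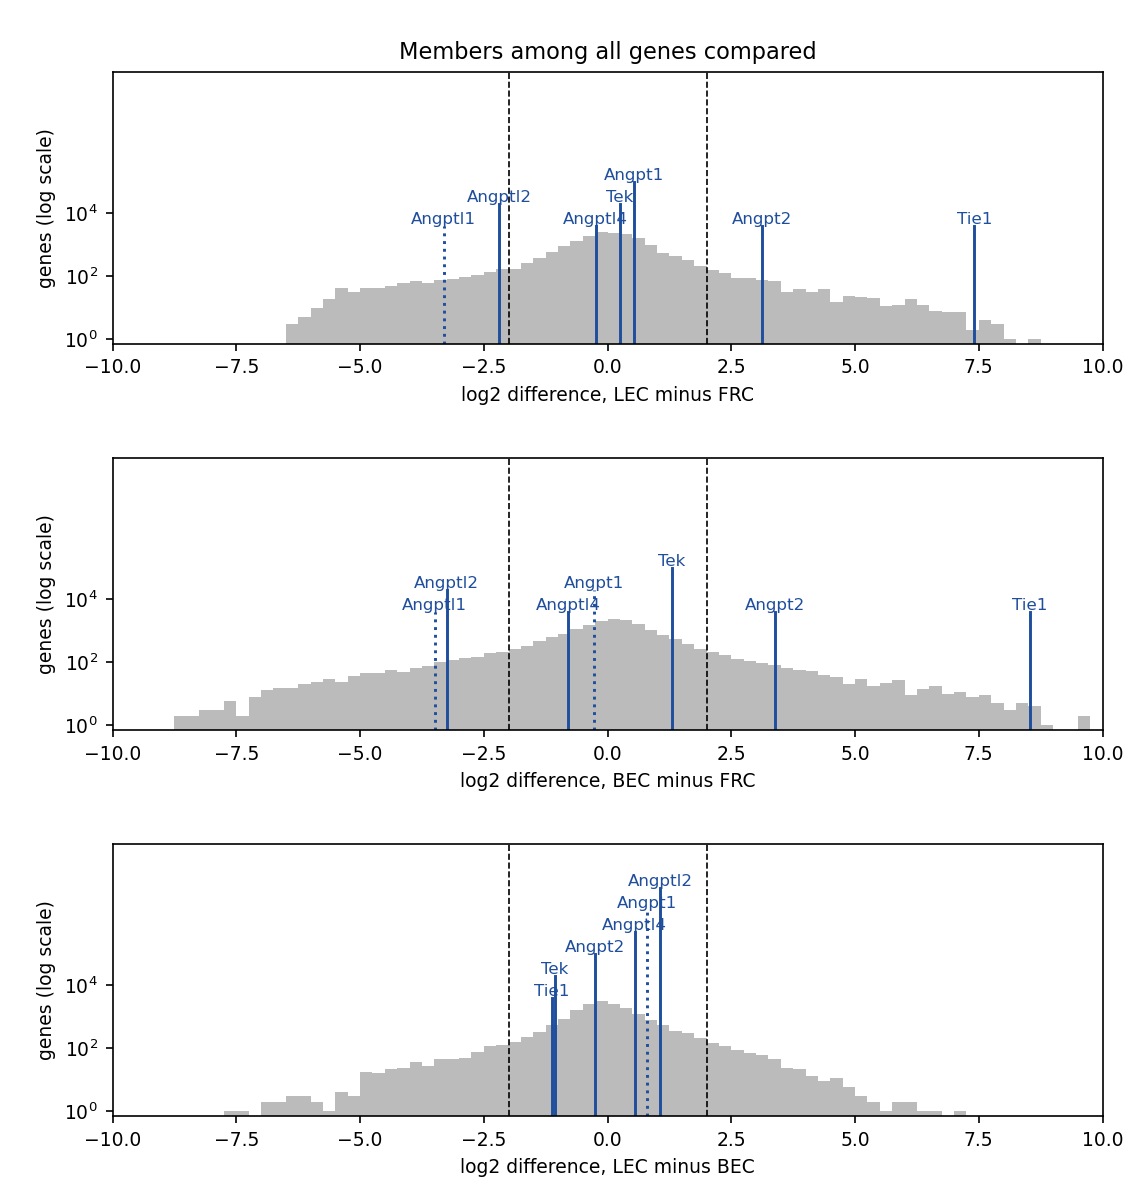
Log2 differences of the members (blue lines, dotted where the value is a bound) over the histogram of all genes compared, with the number of genes on a log axis and dashed lines at 4-fold; line heights are staggered for the labels and carry no value. Tie1 lies at 7.41 and 8.53 in the comparisons with FRC, and in LEC minus BEC every member compared lies inside 4-fold.

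The angiopoietin-like genes split into a pair highest in FRC and 1 gene at similar levels on all arrays. Angptl1 had an intensity of 209 in FRC, 9.02 in LEC and 5.37 in BEC, or -0.89, -4.89 and -6.07, and only the FRC value was well above background. It was at least 9.93-fold higher in FRC than in LEC and at least 11.2-fold higher than in BEC. LEC and BEC could not be compared for this gene. With normexp background correction the bounds shrank to -1.59 (LEC minus FRC) and -1.88 (BEC minus FRC), under 4-fold.

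Angptl2, a secreted factor made by fibroblasts and adipocytes among others, was highest in FRC with each of its 3 probes. The brightest had an intensity of 464 in FRC, 70.4 in LEC and 45.5 in BEC, or 0.26, -1.93 and -2.99. FRC was 4.56-fold above LEC (LEC minus FRC -2.19 ± 0.21) and 9.51-fold above BEC (BEC minus FRC -3.25 ± 0.24). LEC was 2.09-fold above BEC (1.06 ± 0.25). With normexp background correction LEC minus FRC was -1.55, under 4-fold, and BEC minus FRC was -2.09.

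The second Angptl2 probe (chr2:33102102-33102159) was at -1.07 in FRC and -3.94 in LEC, a 7.32-fold difference, and was not well above background in BEC, where FRC was at least 9.92-fold higher. The third (chr2:33085511-33085570) was well above background in FRC alone, at -3.91, with FRC at least 1.22-fold above LEC and at least 1.38-fold above BEC. The 3 probes thus share the order of FRC first, with sizes limited by their brightness. The summed signal of the fibroblastic markers on the endothelial arrays fell in the same order, 190.4 in LEC and 63.1 in BEC. By brightest probe, Pdgfrb was 3.92-fold and Ltbr 1.79-fold higher in BEC than in LEC, while the rest of the list was higher in LEC. The part of fibroblastic RNA in the Angptl2 signal on these arrays was not tested.

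Angptl4, the lipoprotein lipase inhibitor, was far above background on every array. Its single probe (chr17:33911880-33911939) had an intensity of 42103 in FRC, 24714 in LEC and 22708 in BEC, or 6.77, 6.53 and 5.98. FRC was 1.73-fold above BEC (BEC minus FRC -0.79 ± 0.20), and LEC was 1.47-fold above BEC (0.55 ± 0.20). FRC and LEC differed by -0.24 ± 0.20 (LEC minus FRC), and that difference was 0.00 after quantile normalization. Of 8 adipocyte markers on the array, adipocytes being a main source of Angptl4, FRC had 7 well above background, LEC had 5 and BEC had 6, and Lep had that mark on none. Their summed signal was 3.65, 5.75 and 26.6 in the same order. Single markers went different ways, with Cfd 32.1-fold above FRC in BEC and Plin1, a coat protein of fat droplets, 12.5-fold higher in FRC than in BEC. The part of adipocyte RNA in the Angptl4 signal was not tested.

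Further genes of the family were also on the array. Angpt4, a further Tie2 ligand, was well above background in FRC alone, at -1.80, which put it at least 5.27-fold above LEC and at least 5.97-fold above BEC. Angptl7 was likewise well above background in FRC alone, at -2.19, at least 4.02-fold above LEC and at least 4.55-fold above BEC. Angptl6 lay between -1.61 and -1.21 and Angptl8, which acts with other angiopoietin-like proteins on lipase, between -3.81 and -3.59 on the 3 arrays.

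Of 26 genes of Tie signalling, 25 were compared in each contrast. In LEC against FRC, 6 were higher in LEC and 2 in FRC, beside 4.89% and 5.93% of all genes, with a median difference of 0.53 beside 0.03 over all genes. In BEC against FRC, 7 were higher in BEC and 3 in FRC, beside 6.59% and 7.57%, with a median of 0.60 beside 0.10. In LEC against BEC only Itga5 passed 4-fold, being 4.05-fold higher in BEC. Over all genes, 3.39% were higher in LEC and 3.38% in BEC. Ptprb, the phosphatase that dephosphorylates Tie2, had levels of 0.28 (FRC), 6.22 (LEC) and 6.64 (BEC), 61.5-fold and 82.2-fold above FRC. Its other probes gave smaller differences, from 1.01 to 2.88 for LEC minus FRC and 1.96 for BEC minus FRC. Cdh5 was 41.6-fold above FRC in LEC and 87.7-fold above FRC in BEC.

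Svep1, a matrix protein reported as a ligand of Tie1, ran the other way. The FRC level was 6.33, against 0.91 in LEC and -0.91 in BEC, so FRC was 42.7-fold above LEC and 151.5-fold above BEC. Its other probes differed by -5.14 to -2.57 (LEC minus FRC) and -7.29 to -2.75 (BEC minus FRC). The receptor Tie1 and this described ligand were thus brightest on different arrays.

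Further downstream, Nos3 was at least 7.38 (log2) higher in LEC and at least 7.16 higher in BEC than in FRC. Grb7, an adaptor of receptor tyrosine kinases, was 4.30 above FRC in LEC and 2.66 in BEC. The kinase Akt1 and the transcription factor Foxo1, which Akt signalling keeps out of the nucleus, stayed inside 4-fold in every comparison. Foxo1 levels were 3.91 (FRC), 4.44 (LEC) and 4.66 (BEC). Akt1 levels were 4.43, 4.57 and 4.94. Akt2, a related kinase named after its values were seen, was 4.43-fold higher in FRC than in LEC and 6.10-fold higher in FRC than in BEC, and its other probe gave -1.28 (LEC minus FRC) and -2.00 (BEC minus FRC). Itgb1, an integrin chain, was at 2.12, 2.65 and 2.39.

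Of 8 genes described as targets of Foxo1 or of Tie signalling, 7 were compared. In LEC against FRC, 2 were higher in LEC and 1 in FRC, beside 4.89% and 5.93% of all genes, with a median difference of 0.05 beside 0.03. In BEC against FRC, 1 lay on each side, beside 6.59% and 7.57%, with a median of 1.56 beside 0.10. Pdgfb, which recruits pericytes, was at least 5.51 (log2) higher in LEC and at least 6.82 higher in BEC than in FRC. Ccnd1, a cell cycle cyclin, was 2.25 higher in LEC than in FRC. Cited2, a transcriptional co-regulator, was higher in FRC than in LEC, with a LEC minus FRC difference of -2.13. Vcam1, an adhesion molecule, was higher in FRC than in BEC, with a BEC minus FRC difference of -2.43 and other probes from -2.68 to -0.19. Apln, an endothelial peptide ligand, was the 1 gene of this list past 4-fold between the endothelial arrays, 4.82-fold higher in BEC. Its other probes gave LEC minus BEC differences from -4.25 to -1.40, the latter under 4-fold. The shares over all genes were 3.39% higher in LEC and 3.38% higher in BEC.

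The partners of the angiopoietin-like proteins did not share one pattern. Lpl, the lipase that Angptl4 inhibits, had a level of 5.51 in FRC, against 2.20 in LEC and 2.10 in BEC, so FRC was 9.88-fold and 10.6-fold above them. Its other probe gave -3.63 (LEC minus FRC) and -4.64 (BEC minus FRC). Gpihbp1, the endothelial anchor that carries this lipase to the vessel lumen, was at -0.33, 4.10 and 7.22, so LEC was 21.5-fold and BEC 187-fold above FRC. BEC was 8.70-fold above LEC. Lpl and its anchor were thus highest on different arrays, while Angptl4 varied by at most 1.73-fold.

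Of 12 partner genes on the array, 1 was higher in LEC and 1 in FRC among 10 compared, beside 4.89% and 5.93% of all genes. Against BEC, 3 were higher in BEC and 2 in FRC among 11, beside 6.59% and 7.57%. Between LEC and BEC, 0 were higher in LEC and 2 in BEC, beside 3.39% and 3.38%. The list medians were 0.69, 0.52 and 0.27 in that order, beside 0.03, 0.10 and -0.07 over all genes. The triglyceride lipase Pnpla2 was 5.82-fold above FRC in BEC, and the proteoglycan Sdc4 was 6.29-fold higher in FRC than in BEC. Lipg, the endothelial lipase, was well above background in BEC alone, at -4.34, too near the limit for a fold. Pirb, an inhibitory receptor for angiopoietin-like proteins found mainly on leukocytes, was at -4.04, -2.07 and -3.26. Of 12 leukocyte and platelet markers, 10 were well above background in FRC, 10 in LEC and 11 in BEC, with Itgam in none and summed signals of 10.4, 32.6 and 16.6. Their part in the Pirb signal was not tested.

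**Figure D3:**
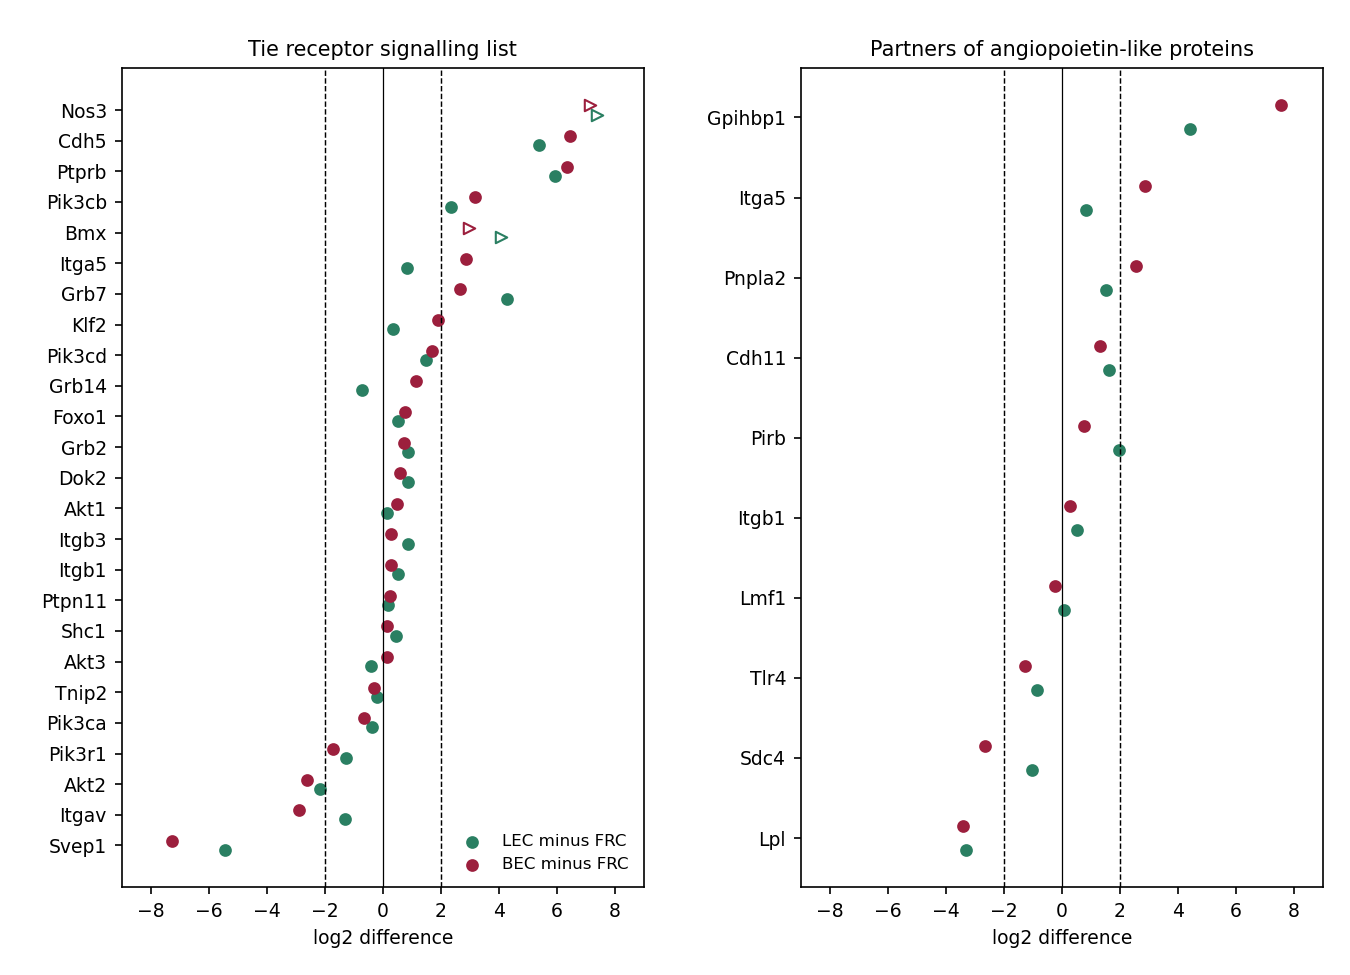
Log2 differences against FRC of the listed pathway genes, LEC minus FRC and BEC minus FRC, by brightest probe, with open triangles for bounds and dashed lines at 4-fold. Ptprb and Gpihbp1 lie on the endothelial side, at 5.94 and 4.43 for LEC minus FRC, and Svep1 and Lpl on the FRC side, at -5.42 and -3.30.

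Among 12 factors described as regulators of Angptl4 or Angpt2, 4 were higher in LEC and 0 in FRC, beside 4.89% and 5.93% of all genes, with a median difference of 0.38 beside 0.03. Against FRC, 5 were higher in BEC and 1 in FRC, beside 6.59% and 7.57%, with a median of 0.80 beside 0.10. Between LEC and BEC, 0 of 11 passed 4-fold, beside 3.39% of all genes higher in LEC and 3.38% higher in BEC. Gata2, an endothelial transcription factor, was at least 7.56 (log2) higher in LEC and at least 8.37 higher in BEC than in FRC. Foxc2, a lymphatic valve factor, was 5.16 above FRC in LEC and 3.55 in BEC. Ets1 was 3.38 and 3.04 above FRC, with its other probes between 1.13 and 2.61. Pparg, the lipid-sensing receptor that induces Angptl4 in fat, was 2.54 and 2.55 above FRC. Epas1, a hypoxia-inducible factor, was 2.93 above FRC in BEC and 0.99 in LEC, where its other probe gave -0.12.

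Likeness was measured as the distance between log2 profiles over the 3 arrays, each gene centred on its own mean, among 12667 genes well above background on all 3. With 3 points per gene this describes shape alone. Among these, Tie1 had no gene within a distance of 0.5, and its nearest were Egfl7 at 0.69, Pecam1 at 0.72 and Myct1 at 0.88. Endothelial genes not well above background in FRC, such as Gata2 and Nos3, could not enter this ranking. The FRC level of Tie1 itself lay only 0.30 above the lowest level with that mark, so its lack of close neighbours depends on this filter. Angpt2 had 52 genes within that distance, led by Mx2 at 0.02, Ppp1r13b at 0.03 and Susd2 at 0.05. Angptl2 had 79, led by Atf5 at 0.02, Echdc2 at 0.05 and Acot6 at 0.08. Flatter profiles had many more neighbours, with 986 for Tek (Adipor2, Plekha1 and B4galt3, each at 0.02) and 2088 for Angptl4 (Pcgf6 at 0.01, Pdlim3 at 0.01 and Usp14 at 0.02). Angpt1 and Angptl1 were not ranked, since their probes were not well above background on every array.

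**Figure D4:**
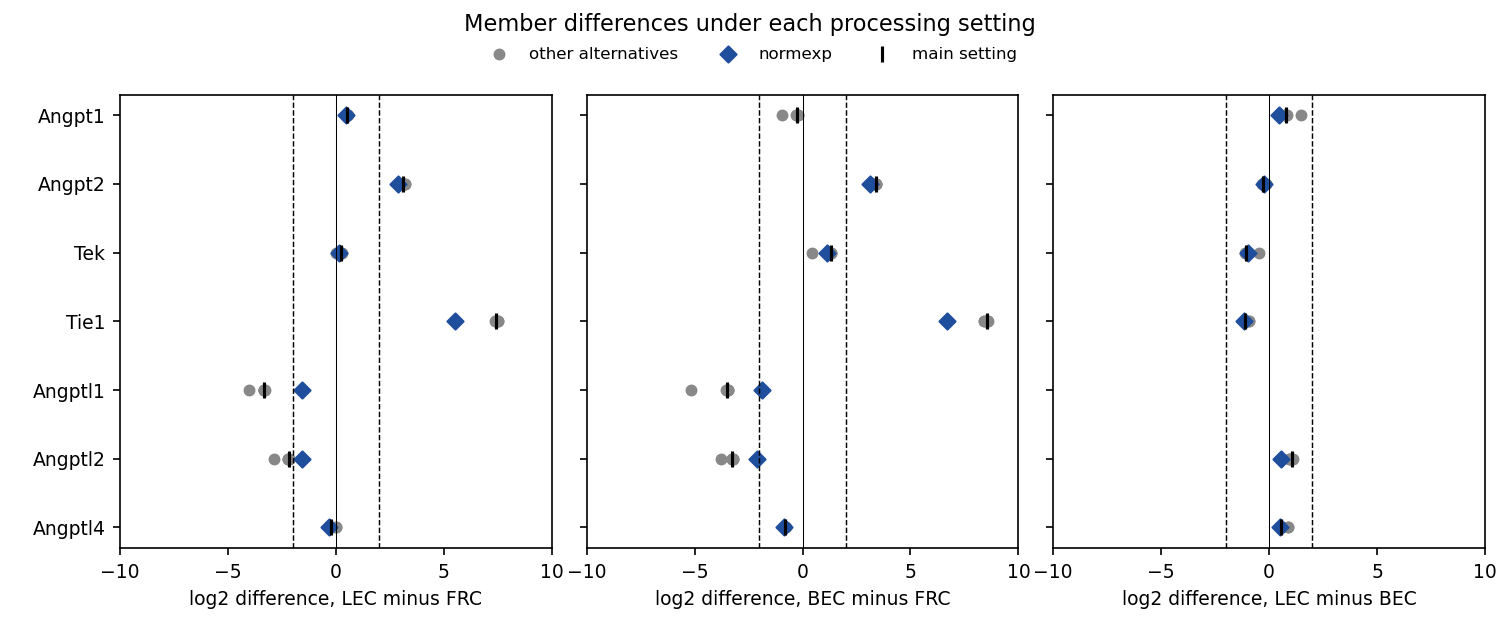
Log2 difference of each member under each way of processing the signal, with black marks for the values of the text, diamonds for normexp background correction, grey points for the other alternatives and dashed lines at 4-fold. Angpt2 stays beyond 4-fold in both comparisons with FRC, and Tie1 moves from 7.41 to 5.51 and from 8.53 to 6.68 under normexp.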

How the data were processed

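The deposited scanner files hold intensity values. The submitters' processing notes name Agilent Feature Extraction 10.7.3.1, and per the file headers this intensity had the background subtracted and spatial trends removed, with no scaling between arrays. The deposited series matrix holds the authors' linear intensity values, used as an alternative. The scanner's marks for background, outliers and saturation were read as deposited. From these, the log2 value of each probe was computed relative to its array's 75th percentile, without outlier-marked spots, which removed 18 probes. Gene names were updated by accession through a RefSeq table of GRCm38.p6, which matched 26681 probes. Every member is named with all its probes; of the other lists, up to 5 genes past 4-fold and the direct partners of members are named, and 3 nearest genes per member; 1 listed gene is not reported here. The members and lists were chosen with earlier results of these data known. Alternatives covered scaling, background correction (limma 3.58.1 in R 4.3.3, normexp with an offset of 50), the filter on dim probes, the probe that stands for a gene, outlier spots and the fold. The comparison step was tested on simulated data. Probes spotted 10 times had a median SD of 0.05 to 0.06 log2 between spots. The number of arrays limits the precision.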

Additional observations from a re-analysis of the deposited data

How the results depend on the processing

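Over the 8 alternatives that recompute a difference (7 for Angpt1 in BEC against FRC), 18 of 20 member differences never changed sign. The exceptions were Tek (LEC minus FRC -0.01 with the median over its probes) and Angptl4 (LEC minus FRC 0.00 after quantile normalization and in the authors' matrix). All 8 differences past 4-fold kept their sign in these, and 5 stayed past it in each: Angpt2 and Tie1 against FRC in both endothelial populations, and Angptl2 in BEC against FRC. With normexp, the members higher in FRC numbered 0 against LEC, where Angptl1 was at -1.59 and Angptl2 at -1.55, and 1 against BEC, where Angptl1 was at -1.88. Over all genes the shares were 3.47% and 4.57%, below the 5.93% and 7.57% without it. Normexp was run with an offset of 50, which is added to every spot and shrinks differences that rest on dim spots. How far this accounts for the lower counts and shares was not tested. At 8-fold, 1 member (Angptl1) was higher in FRC than in LEC, beside 3.16% of genes. At 2-fold, 1 member (Angptl2) was higher in LEC than in BEC, beside 11.0% of genes, and 2 (Tek, Tie1) were higher in BEC, beside 10.2%. Normexp gave no value for Angpt1 in BEC against FRC. The median over all genes moved between -0.13 and 0.13 with the scaling and filter. No paired analysis was possible because each population has 1 array. Signal over background limits Angpt1, and Tie1 in FRC.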

Other observations

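A further pair of probes names members in the description alone and was left out of the counts. A probe described as angiopoietin-related protein 1 (chr1:158775609-158775668, mm9) was well above background in FRC alone, at -1.72, at least 5.57-fold above LEC and at least 6.32-fold above BEC, the same order as the Angptl1 probe. A probe on a neonate thymus cDNA described as angiopoietin-like 2 (chr2:33099463-33099522) was not well above background on any array, although the brightest Angptl2 probe lies next to it.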
